A study of Homo sapiens with 6 samples.

Results

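The membrane transporters that carry bile acids, organic anions and organic cations into and out of liver cells, together with all ATP-binding cassette (ABC) proteins, were followed in Huh7 cells with and without forced expression of LHX2, a LIM-homeodomain transcription factor. Members were taken by gene symbol alone: every row of the count table named as an SLC10, SLC22, SLC47 or SLCO solute carrier or as an ABCA to ABCG protein. That gave 89 of the 28265 genes, 43 solute carriers (7 SLC10, 22 SLC22, 2 SLC47 and 12 SLCO) and 46 ABC genes. Related transporters with other symbols, such as TAP1, TAP2, CFTR and the SLC51 subunits, fall outside this rule and are described at the end.

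Huh7 is an established human hepatocellular carcinoma line. The study compared 3 libraries from Huh7 cells that had received a lentiviral vector expressing LHX2 with 3 libraries from cells that had received a control vector, each 48 h after transduction. The labels record the control cells as parental in the field for modifications, although both groups carried a vector. No source used here gives the vector's promoter, the share of cells transduced or whether replicates were separate cultures. The p-values therefore set the difference between groups only against the spread of these libraries, and that spread may be technical. All values are RNA from a whole culture, in which fewer cells with a transcript and less transcript per cell cannot be told apart.

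A hepatocyte has a blood-facing (sinusoidal or basolateral) membrane and a bile-facing (canalicular) membrane. Carriers of the SLC10, SLCO and SLC22 families take up bile acids, bilirubin, hormones and drugs from blood, ABC exporters driven by ATP push bile acids, conjugates, phospholipid and drugs into bile, and further ABC exporters of the blood side return conjugates to the circulation. Other ABC proteins sit in mitochondria, peroxisomes and lysosomes, and the ABCE and ABCF proteins have no membrane domain and act on ribosomes. Hepatoma lines often keep only a part of this set.

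SLCO1B1 and SLCO1B3 encode the closely related uptake carriers OATP1B1 and OATP1B3 and lie in the same gene cluster on chromosome 12, at 21131194 to 21239796 and 20810705 to 20916911 of GRCh38. Because these relatives moved in opposite directions (below), the 250 bases before their annotated start sites are shown, at chr12:21130944-21131193 and chr12:20810455-20810704 on the plus strand, from RefSeq (GRCh38.p14).
SLCO1B1: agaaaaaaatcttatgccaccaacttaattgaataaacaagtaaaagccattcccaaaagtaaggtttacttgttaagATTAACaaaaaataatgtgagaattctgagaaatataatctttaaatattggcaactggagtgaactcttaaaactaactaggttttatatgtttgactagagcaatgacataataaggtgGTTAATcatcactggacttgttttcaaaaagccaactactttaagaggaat
SLCO1B3: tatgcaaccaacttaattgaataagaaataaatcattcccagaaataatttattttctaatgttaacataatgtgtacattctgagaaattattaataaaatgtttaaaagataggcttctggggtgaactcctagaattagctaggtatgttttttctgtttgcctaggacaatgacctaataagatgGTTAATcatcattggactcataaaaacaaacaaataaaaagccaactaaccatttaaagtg
Capitals mark GTTAAT on either strand, a core found in promoters of many liver genes. The stretches aligned over 223 bases, of which 177 (79.4%) were identical, and each held a GTTAAT close to the start, beginning 51 bases before it in SLCO1B1 and 61 bases before it in SLCO1B3. SLCO1B1 held another match 172 bases before its start. Of all 35116 RefSeq promoters of the same kind (250 bases before to 50 after a start), 6.88% held this motif. TAATTA, a core that homeodomains recognise, was in neither sequence, and it was found in 2 of the 88 promoters that the table holds for 63 member genes (2.27%), those of ABCA10 and ABCC12, and in 4.84% of all promoters. AGGTCA on either strand, the core of nuclear receptor sites, was found in 10 of those 88 promoters (11.4%), among them promoters of SLCO1B3 and ABCG2 but not of SLCO1B1, and in 13.8% of all promoters, whereas AGGTCA repeated head to head across a single base, the element of the bile acid receptor FXR, was matched exactly by 0 of the 35116. These matches describe letters in the window only.

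The vector gene was checked first. LHX2 (chromosome 9, 124011768 to 124033301) was near 0 without its vector, at 1, 2 and 1 counts, and reached 2535, 2427 and 3126 with it. Values per library follow the order of replicates 1 to 3 here and throughout. Total counts lay between 30029313 and 39653681 per library. Levels are given as CPM, the count scaled to the normalised size of its library. Of 8 hepatocyte markers, AFP, ALB and APOB had control means of 24730, 12160 and 6372 CPM, and the summed level of the list ran from 47890 to 49250 CPM in the control and from 44640 to 48990 CPM in the LHX2 libraries. Of these 8 markers 1 was called higher and 3 lower, at log2 fold changes between -0.30 and 0.22 over the list, with HNF4A among those lower. Some markers of other liver cells were at 0 and others were not: CDH5, KDR, CD3E, KRT7 and SCTR had 0 counts in every library, whereas SOX9 had 132 CPM in control and 128 CPM in LHX2 libraries. The summed cholangiocyte list ran from 173 to 179 CPM in control and 182 to 193 CPM in LHX2 libraries, most of it from SOX9, with KRT19 (19.98 and 28.8 CPM) and EPCAM (22.5 and 29.4 CPM) higher. CFTR of the same list, below the filter, went the other way without overlap, at 15, 9 and 24 against 3, 4 and 7 counts. The fibroblast list ran from 17.7 to 19.8 and 46.6 to 52.6 CPM, with COL1A2 and LUM higher. Its other 4 members were below the filter. Of these, PDGFRB (6, 10 and 6 against 1, 1 and 2 counts) and COL3A1 (9, 7 and 8 against 2, 2 and 4 counts) were lower without overlap. COL1A1 overlapped between the groups, and DCN had at most 1 count. The endothelial list (3.75 to 4.28 and 2.77 to 3.22 CPM) held PECAM1, which was lower. The immune list (9.21 to 10.7 and 17.5 to 18.6 CPM) held CD68, which was higher, with at most 3 counts of PTPRC. CD14 of the immune list did not pass (log2 fold change 0.21, edgeR adjusted p = 0.46). The part of these marker genes in the results was not tested.

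Of the 89 members, 57 passed the filter on low counts and were tested, and 32 were not. Among the tested members 16 rose and 11 fell with LHX2, and 30 did not pass. The test was edgeR's quasi-likelihood test, with a threshold of 0.05 on p-values adjusted by Benjamini-Hochberg over all tested genes. Those are 28.1% and 19.3% of the tested members, and over all 14533 tested genes the shares were 16.6% higher, 15.8% lower and 32.5% in either direction. By at least 1.5-fold, 11 of the 57 members rose and 5 fell, whereas 4.63% of all tested genes rose and 1.96% fell by that much. The control and LHX2 libraries did not overlap in 35 of the 57 members (18 higher, 17 lower), against 44.9% of all tested genes. These shares are not matched for expression. With each library's trend over GC content and transcript length removed, 14 members were called higher and 15 lower. The median log2 fold change was -0.02 over the members and 0.01 over all tested genes.

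**Figure D1:**
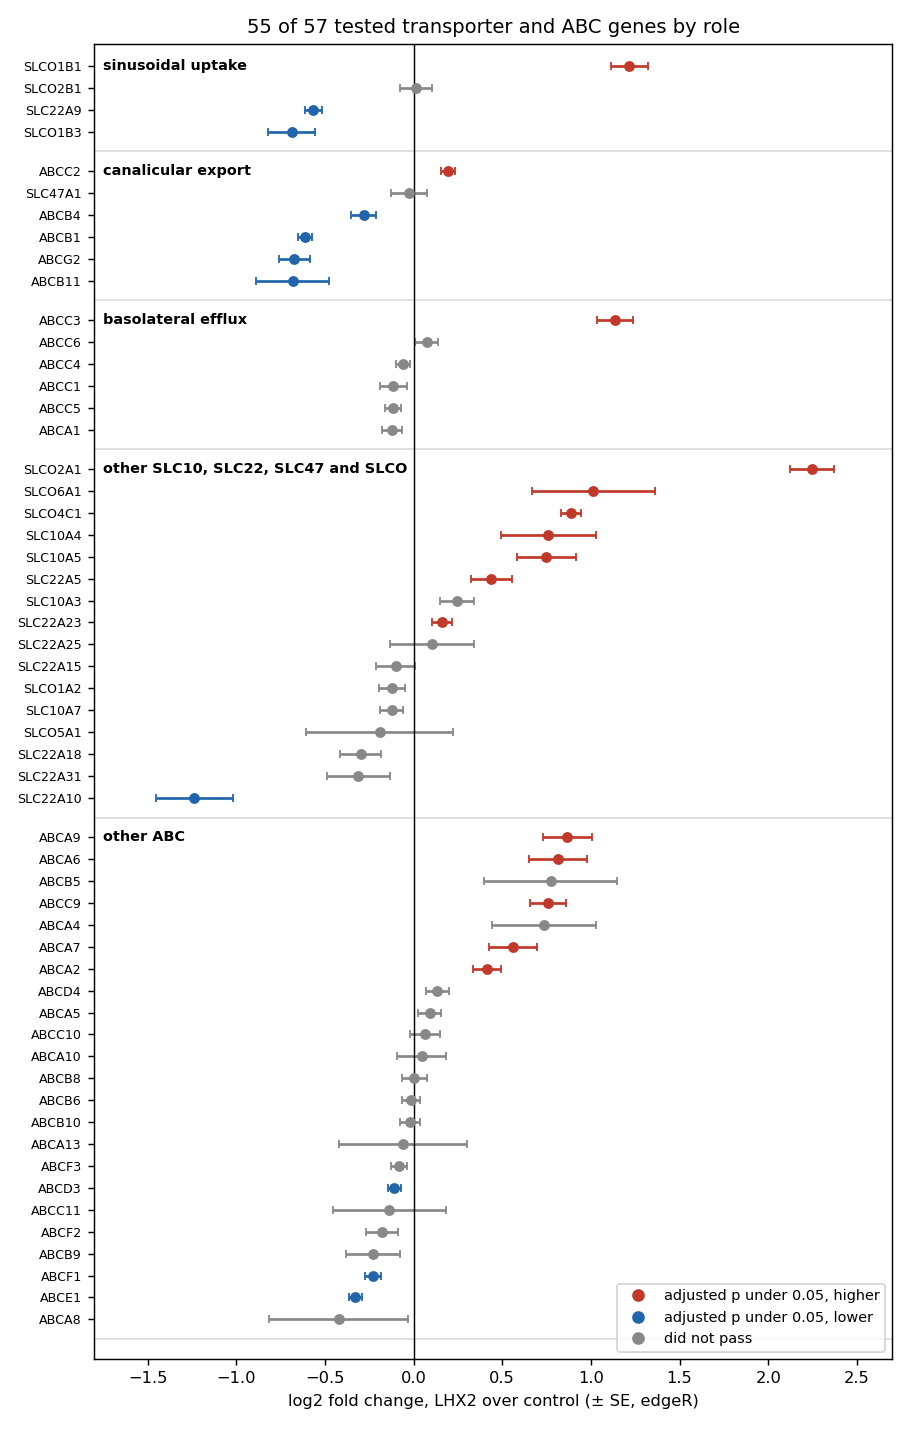
Log2 fold change of 55 of the 57 tested members (x axis, LHX2 over control, with its SE), grouped by role, with members that passed the test in colour. Canalicular exporters lie mostly to the left, with ABCC2 as the member that rose, while SLCO2A1, SLCO1B1 and ABCC3 lie farthest to the right.

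Sinusoidal uptake carriers went both ways. Of the 8 members in this list 4 were tested, of which SLCO1B1 rose, SLC22A9 and SLCO1B3 fell and SLCO2B1 did not pass (median log2 fold change -0.28). Over all tested genes 16.6% rose and 15.8% fell. SLCO1B1, a carrier of bilirubin, bile salts and statins, had 3.69, 3.47 and 3.36 CPM in control and 8.22, 8.43 and 7.80 CPM in LHX2 libraries. Every LHX2 library was thus above every control library, and the change was 2.32-fold (log2 fold change 1.22 ± 0.10, SE; edgeR adjusted p = 4.75e-07). SLCO1B3, whose product shares most of these substrates, had 3.78, 3.60 and 3.45 CPM in control and 2.296, 2.198 and 2.219 CPM in LHX2 libraries. It was 1.61-fold lower without overlap (log2 fold change -0.69 ± 0.13, SE; edgeR adjusted p = 1.02e-03).

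The ratio of counts within a library needs no scaling between libraries. The ratio of SLCO1B1 to SLCO1B3 counts was 0.976, 0.965 and 0.973 in the control libraries and 3.58, 3.84 and 3.51 in the LHX2 libraries. The genes thus had nearly equal counts in control cells and differed 3.64 ± 0.171-fold (SD, n = 3) with LHX2. An exact two-sided permutation test over the 6 libraries gave p = 0.1, the smallest value that 3 against 3 can give. Each gene had already separated the groups without overlap, in opposite directions, so this p-value was fixed and adds no support. Reads that could come from a shared sequence bear on these genes: 67.4% of the 50-base words of the longest SLCO1B3 transcript also occur in a read-through transcript of SLCO1B3 and SLCO1B7, which has its own row with 2 to 6 counts per library, and 9.27% of the words of SLCO1B1 occur in another annotated transcript. No source used here says how reads shared between rows were treated.

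SLC22A9, which encodes the liver organic anion transporter OAT7, was the sinusoidal carrier with the highest level. It had 71.2, 77.0 and 79.0 CPM in the control and 50.2, 49.97 and 53.2 CPM in the LHX2 libraries, 1.48-fold lower without overlap (edgeR adjusted p = 6.65e-07). Its neighbour SLC22A10, an organic anion carrier family member of the same cluster on chromosome 11, fell as well (below). SLCO2B1, an uptake carrier of steroid sulfates and drugs, had 22.7, 25.4 and 26.5 CPM in control and 24.3, 21.9 and 28.96 CPM in LHX2 libraries. These ranges overlap, and its log2 fold change was 0.01 ± 0.09 (SE; edgeR adjusted p = 0.93).

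The other 4 sinusoidal carriers were too low to test. SLC10A1 encodes NTCP, the principal sodium-dependent bile acid importer, and it had 0 counts in all 6 libraries, where 3 counts would correspond to 0.076 to 0.10 CPM. SLC22A7, which encodes OAT2, had 2 to 8 counts in every library. SLC22A3, the gene of the cation carrier OCT3, had 9, 14 and 13 counts in control and 3, 2 and 1 in LHX2 libraries, without overlap. The summed counts of SLC22A3 gave a control level 5.45 times that of the LHX2 libraries (exact binomial 95% interval 2.27 to 15.8, counting error only), and it was called when all genes with counts were fitted (log2 fold change -2.40, edgeR adjusted p = 2.95e-03).

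Canalicular exporters fell more often than they rose. Of 8 members 6 were tested: ABCB1, ABCG2, ABCB11 and ABCB4 fell, ABCC2 rose and SLC47A1 did not pass, with a median log2 fold change of -0.45. The shares over all tested genes were 15.8% lower and 16.6% higher. ABCB1, the multidrug exporter P-glycoprotein (chromosome 7, 87503017 to 87713295), had 130, 132 and 135 CPM in control and 87.1, 88.7 and 84.8 CPM in LHX2 libraries. The groups lay far apart relative to their spread, and the level was 1.53-fold lower (log2 fold change -0.61 ± 0.04, SE; edgeR adjusted p = 1.99e-08). ABCG2, the breast cancer resistance protein, which exports urate and drugs, had 12.5, 14.0 and 13.9 CPM in control and 9.02, 8.24 and 8.16 CPM in LHX2 libraries. It was 1.59-fold lower without overlap (log2 fold change -0.67 ± 0.09, SE; edgeR adjusted p = 2.81e-05). ABCB4, the phosphatidylcholine floppase of the canaliculus, lies next to ABCB1 and had a smaller change, with 17.5 ± 0.604 CPM in control and 14.4 ± 0.541 CPM in LHX2 libraries (SD, n = 3; lower at an edgeR adjusted p = 7.12e-03).

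ABCB11 encodes the bile salt export pump, the exporter of conjugated bile acids. It was low, with 58, 59 and 63 counts in control and 30, 40 and 34 in LHX2 libraries, or 1.78, 1.51 and 1.94 against 0.998, 1.31 and 0.943 CPM. The groups did not overlap and the level was 1.60-fold lower (log2 fold change -0.68 ± 0.21, SE; edgeR adjusted p = 0.020). The call was lost without control replicate 1 (adjusted p = 0.061), control replicate 3 (0.074), LHX2 replicate 1 (0.057) or LHX2 replicate 3 (0.069) and with the replicate number as a block (0.053), at log2 fold changes between -0.68 and -0.58.

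ABCC2, the exporter MRP2 of bilirubin glucuronide and other conjugates, was the canalicular exporter with the highest level and the member of this list that rose. It had 242, 231 and 233 CPM in control and 268, 277 and 263 CPM in LHX2 libraries, a small rise of 1.15-fold without overlap (log2 fold change 0.20 ± 0.04, SE; edgeR adjusted p = 1.18e-03). The ratio of ABCC2 to ABCB1 counts went from 1.77 ± 0.069 in control to 3.10 ± 0.025 in LHX2 libraries (SD, n = 3). Each of the 3 LHX2 values lay above each control value, and the exact two-sided permutation p was 0.1, again the smallest possible. That too was fixed by the separate changes of ABCC2 and ABCB1, each without overlap, and adds no support. SLC47A1, the gene of the proton-coupled cation exporter MATE1, had 15.2 ± 1.17 and 14.9 ± 2.24 CPM (SD, n = 3; edgeR adjusted p = 0.86). The sterol exporters of bile, ABCG5 and ABCG8, were too low to test, with 0 or 1 count of ABCG5 and 3 to 10 counts of ABCG8 in every library.

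**Figure D2:**
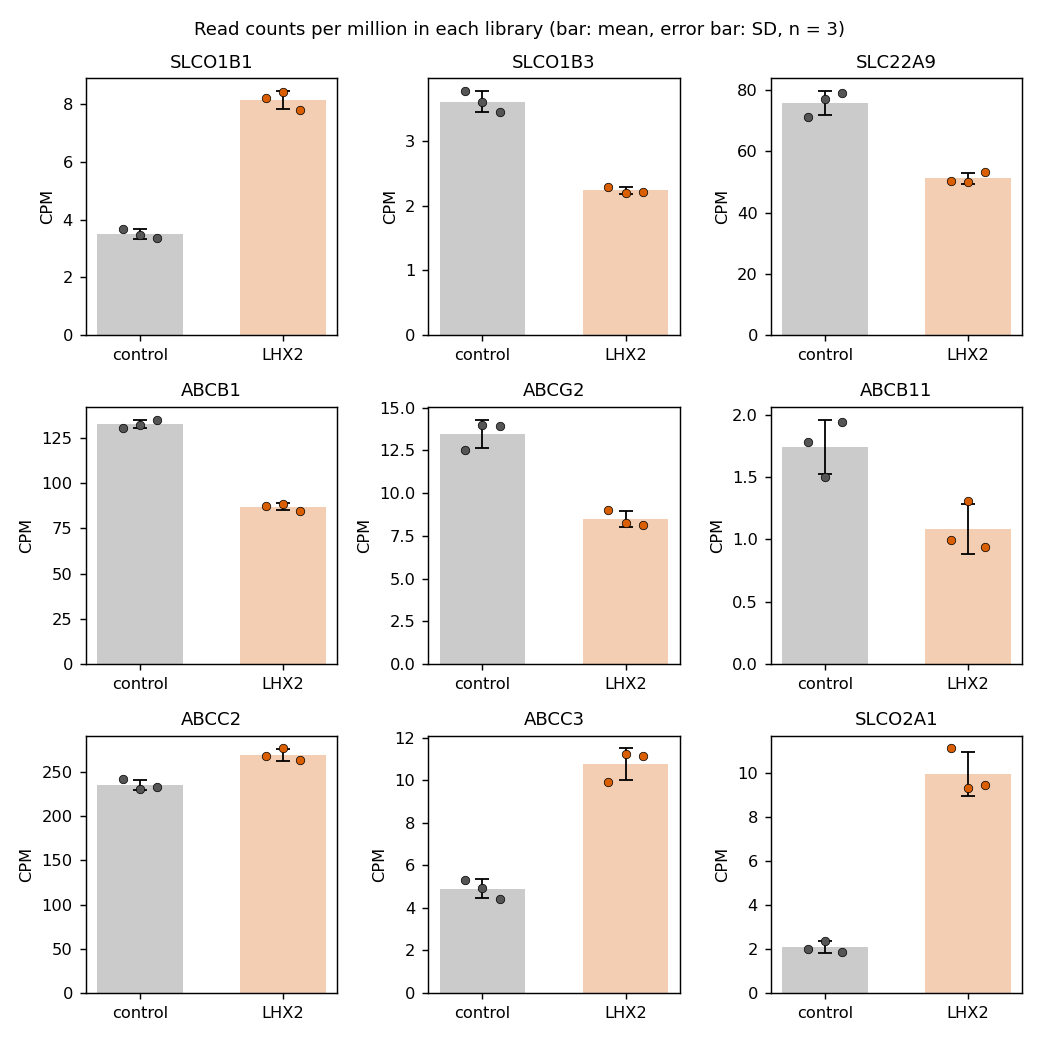
CPM of 9 members in each of the 3 control and 3 LHX2 libraries (points), with the mean (bar, from 0) and SD (error bar). The groups do not overlap in any of the 9, with SLCO1B1, ABCC2, ABCC3 and SLCO2A1 higher and the other members shown lower with LHX2. These 9 were picked from members that passed the test, and 44.9% of all tested genes did not overlap either.

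Among 6 exporters of the blood-facing membrane, all tested, ABCC3 rose and 5 did not pass (median log2 fold change -0.09). That is 16.7% higher, near the 16.6% of all tested genes. ABCC3, the conjugate exporter MRP3 (chromosome 17, 50634881 to 50692253), had 5.31, 4.95 and 4.43 CPM in control and 9.92, 11.2 and 11.2 CPM in LHX2 libraries. That was a rise without overlap (log2 fold change 1.14 ± 0.10, SE; edgeR adjusted p = 7.63e-07). Its level stayed far under that of ABCC2: per kilobase of longest transcript, ABCC3 had 0.857 CPM in control and 1.88 CPM in LHX2 libraries, and ABCC2 had 40.5 and 46.4 CPM.

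The remaining exporters of this list differed little. ABCC1, ABCC4 and ABCC5 were nonetheless lower without overlap, so a lack of overlap does not mark out the called genes. ABCA1, which loads cholesterol and phospholipid onto apolipoprotein A-I, had a log2 fold change of -0.12 ± 0.06 (SE; edgeR adjusted p = 0.11), and ABCC5, an exporter of cyclic nucleotides, -0.12 ± 0.05 (adjusted p = 0.066). ABCC1 (MRP1) had -0.11 ± 0.08 (adjusted p = 0.29) and ABCC4 (MRP4), which exports bile acids with glutathione and cyclic nucleotides, -0.06 ± 0.04 (adjusted p = 0.31). After removal of the trend of each library with GC content and transcript length, ABCA1, ABCC5 and ABCC1 were called lower at -0.25, -0.18 and -0.22, with edgeR adjusted p-values of 2.72e-04, 3.90e-03 and 0.028. ABCA1 was also called lower without LHX2 replicate 2 (-0.17, adjusted p = 0.045) and with low genes kept (-0.12, adjusted p = 0.045). ABCC6, whose loss causes pseudoxanthoma elasticum, had 0.07 ± 0.06 (adjusted p = 0.41), and 15.1% of the 50-base words of its longest transcript recur in other annotated transcripts, mostly those of its pseudogenes, so its value is uncertain.

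SLCO2A1, the prostaglandin transporter (chromosome 3, 133932701 to 134029925), had the highest log2 fold change of all tested members. It had 1.997, 2.37 and 1.88 CPM in control and 11.1, 9.32 and 9.46 CPM in LHX2 libraries, or 61 to 93 against 284 to 341 counts. The rise was 4.74-fold without overlap (log2 fold change 2.25 ± 0.13, SE; edgeR adjusted p = 4.88e-09). SLCO4C1, an organic anion carrier best known from the kidney, lies on chromosome 5 at 102233986 to 102296284. It rose from 27.9, 28.6 and 31.2 to 50.8, 55.6 and 55.6 CPM, 1.85-fold without overlap (log2 fold change 0.89 ± 0.06, SE; edgeR adjusted p = 2.44e-08). Its neighbour SLCO6A1, a gene known from testis, was near the detection limit with 15, 12 and 6 against 19, 22 and 21 counts (log2 fold change 1.01 ± 0.35, SE; adjusted p = 0.036). The call of SLCO6A1 was lost without control replicate 2 or 3 or LHX2 replicate 1 or 2, with DESeq2 and with the replicate block, at adjusted p-values between 0.059 and 0.14. SLCO1A2 did not pass, with 14.2 ± 0.512 and 13.0 ± 0.466 CPM (SD, n = 3; adjusted p = 0.24), and SLCO5A1 had at most 21 counts in a library.

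Of the tested SLC22 genes outside the sinusoidal list, SLC22A10 fell most. It had 2.49, 2.14 and 2.16 CPM in control and 0.932, 1.28 and 0.694 CPM in LHX2 libraries, 2.36-fold lower without overlap (log2 fold change -1.24 ± 0.22, SE; edgeR adjusted p = 4.72e-04). SLC22A5, the carnitine carrier OCTN2, had 3.56 ± 0.244 CPM in control and 4.81 ± 0.169 CPM in LHX2 libraries (SD, n = 3), a 1.36-fold rise (edgeR adjusted p = 9.14e-03). That call was lost after removal of the GC and length trend, at a log2 fold change of 0.30 (adjusted p = 0.052). SLC22A23 rose by 0.16 on the log2 scale (adjusted p = 0.035). The SLC22A23 call was lost without control replicate 1 or 2 or LHX2 replicate 3, with DESeq2, with the replicate block and with the trend removed, where it was 0.03, and 19.7% of its 50-base words recur in PSMG4 transcripts of the opposite strand. SLC22A15, SLC22A18, SLC22A25 and SLC22A31 did not pass, at log2 fold changes between -0.31 and 0.11. With low genes kept, SLC22A18 was called lower (log2 fold change -0.30, edgeR adjusted p = 0.037).

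In the SLC10 family, whose founding members are bile acid carriers, the bile acid carriers themselves were absent or nearly so: SLC10A1 had 0 counts and SLC10A2, the ileal importer, had 1 count in all libraries together. SLC10A5 rose from 62, 80 and 80 to 86, 112 and 150 counts (log2 fold change 0.75 ± 0.17, SE; edgeR adjusted p = 3.06e-03). SLC10A4, which is found in synaptic vesicles, had 19, 26 and 17 counts in control and 39, 26 and 32 in LHX2 libraries (log2 fold change 0.76 ± 0.27, SE; adjusted p = 0.041). The SLC10A4 call was lost when control replicate 1, 2 or 3 or LHX2 replicate 1 was left out, with DESeq2 and with the replicate block, at adjusted p-values between 0.074 and 0.18. SLC10A3 (0.25 ± 0.10, SE; adjusted p = 0.065) and SLC10A7 (-0.12 ± 0.07; adjusted p = 0.17) did not pass.

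**Figure D3:**
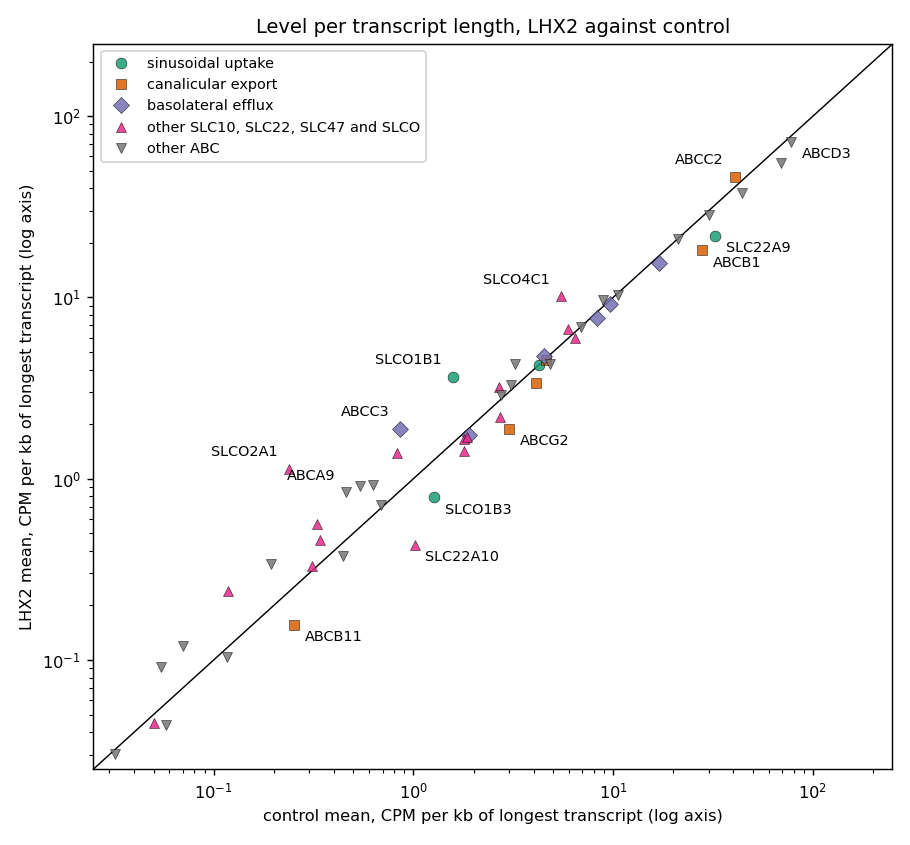
Mean level of the same 55 tested members in control (x axis) and LHX2 libraries (y axis) in CPM per kilobase of the longest annotated transcript, both on log axes, with marks by role and a line of equal levels. SLCO2A1, SLCO1B1, ABCC3 and SLCO4C1 lie above the line, while SLC22A10, SLCO1B3 and ABCB11 lie below it. Among the members with high levels, SLC22A9 and ABCB1 also lie below the line, at 1.48-fold and 1.53-fold lower.

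The order of levels per transcript length changed little at the top. In control cells ABCD3 led with 77.5 ± 1.79 CPM per kilobase, then ABCE1 (69.1 ± 1.34), ABCF1 (44.3 ± 1.30), ABCC2 (40.5 ± 0.995), SLC22A9 (32.3 ± 1.73) and ABCF3 (30.2 ± 1.31; SD, n = 3 for each), of which SLC22A9 and ABCF3 differ by less than the sum of their SDs. ABCB1 (27.8 ± 0.488) and ABCB6 (21.1 ± 0.612) followed. With LHX2 the same 8 genes led, and ABCC2 (46.4 ± 1.18) came before ABCF1 (37.8 ± 1.78), ABCF3 before SLC22A9, and ABCB6 before ABCB1. SLCO1B1 went from place 34 to 24, ABCC3 from 38 to 31, SLCO2A1 from 49 to 38, SLCO1B3 from 35 to 42 and ABCG2 from 26 to 30 among 57. This scale divides by the longest annotated transcript, which need not be the form these cells use.

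Outside the exporters of either hepatocyte membrane, 25 of 33 other ABC genes were tested, of which 6 rose, 4 fell and 15 did not pass (median log2 fold change 0.005). All 6 that rose were low to moderate in level. ABCA9 (2.99 ± 0.459 to 5.47 ± 0.638 CPM; edgeR adjusted p = 2.28e-04) and ABCA6 (1.59 ± 0.178 to 2.79 ± 0.283 CPM; adjusted p = 1.44e-03; SD, n = 3 for both), which resemble lipid transporters, rose 1.82-fold and 1.76-fold. They are neighbours in a cluster of 5 ABCA genes on chromosome 17, in which ABCA5, ABCA8 and ABCA10 did not pass (0.09, -0.42 and 0.05 on the log2 scale). ABCC9, the sulfonylurea receptor subunit of potassium channels, rose 1.69-fold with 4.67, 4.52 and 4.22 CPM in control and 7.99, 7.58 and 7.16 CPM in LHX2 libraries (adjusted p = 4.63e-05). ABCA7, a phospholipid transporter, rose 1.47-fold (adjusted p = 5.49e-03), and ABCA2, a lysosomal lipid transporter, 1.33-fold from 26.4 ± 2.27 to 35.0 ± 3.60 CPM (SD, n = 3; adjusted p = 1.03e-03). With the length and GC trend removed these were smaller, 0.37 in place of 0.56 for ABCA7 and 0.20 in place of 0.41 for ABCA2 on the log2 scale, and still passed.

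Transporters of the ABCD family serve peroxisomes and lysosomes. ABCD3, which brings the C27 bile acid intermediates into peroxisomes, fell slightly from 338 ± 7.80 to 314 ± 8.32 CPM (SD, n = 3; log2 fold change -0.11, adjusted p = 0.041). The ABCD3 call was lost with library totals alone, with the replicate block and without control replicate 1 or 2 or LHX2 replicate 1, at adjusted p-values between 0.0997 and 0.16. ABCD4, a lysosomal protein of the cobalamin pathway, did not pass at 0.13 ± 0.06 (SE; adjusted p = 0.13), but rose at 0.19 without LHX2 replicate 2 (adjusted p = 0.032), and ABCD2 had at most 3 counts.

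The ABC proteins without a membrane domain were all fitted below 0. ABCE1, which recycles ribosomes, had 265, 274 and 274 CPM in control and 216, 220 and 211 CPM in LHX2 libraries, 1.26-fold lower without overlap (log2 fold change -0.33 ± 0.04, SE; edgeR adjusted p = 9.38e-06). ABCF1, which acts in translation initiation, had 154 ± 4.54 CPM in control and fell to 132 ± 6.20 CPM (SD, n = 3; adjusted p = 8.51e-04). ABCF2 (-0.18 ± 0.09, SE; adjusted p = 0.14) and ABCF3 (-0.08 ± 0.04; adjusted p = 0.17) did not pass. ABCE1 shares 25.6% of its 50-base words with other annotated transcripts, among them ANAPC10 on the opposite strand, which was at -0.18 (adjusted p = 0.099).

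The mitochondrial proteins ABCB6, ABCB8 and ABCB10, which serve heme metabolism and the inner membrane, had log2 fold changes of -0.01, 0.005 and -0.02, with SEs of 0.05, 0.07 and 0.06. The row of ABCB6 is uncertain, since 90.8% of its 50-base words recur in a transcript annotated under another gene. ABCA4, ABCA13, ABCB5, ABCB9, ABCC10 and ABCC11 did not pass either, and of these only ABCC10 had more than 3 CPM.

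The 32 members that were not tested had between 0 and 15 counts in any library. Besides SLC10A1, 10 others had 0 counts throughout: ABCA12, ABCC8, ABCC12, ABCC13, SLC22A6, SLC22A8, SLC22A11, SLC22A12, SLC47A2 and SLCO4A1, several of which are carriers known from the kidney. The other 21 had 1 to 55 counts over the 6 libraries together. Of the 32, only SLC22A3 and SLC22A4 had groups that did not overlap in CPM, and SLC22A4 had at most 3 counts in a library.

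By position, 42 members lay in 17 groups of neighbours separated by at most 200 kb. ABCB1 and ABCB4 on chromosome 7 fell together, as did SLC22A9 and SLC22A10 on chromosome 11, while SLC22A25 beside them did not pass (0.11 on the log2 scale). SLCO4C1 and SLCO6A1 on chromosome 5 were both called higher, as were ABCA6 and ABCA9. The SLCO1 genes of chromosome 12 that had a position fell into separate groups at this distance, where SLCO1B1 rose and its neighbour SLCO1A2 did not pass, while SLCO1B3 fell. SLCO1B7, the read-through partner of SLCO1B3, had no position and was left out. That split and the counts of groups and members may therefore depend on its absence. The rows of ABCB1 and ABCB4 share 2.52% and 2.82% of their 50-base words, those of SLC22A9 and SLC22A10 at most 0.09% with any other gene, so most of each transcript can be told from its neighbour.

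Genes around the transporters were counted over whole lists, and the genes named from each list are mostly those with the largest changes. Of 17 regulators of transporter genes 16 were tested, 4 rose, 3 fell and 9 did not pass. NR1H4, which encodes the bile acid receptor FXR, had 252 ± 7.13 CPM in control and 321 ± 2.40 CPM in LHX2 libraries (SD, n = 3; log2 fold change 0.35, edgeR adjusted p = 5.78e-06). NR0B2, which encodes the repressor SHP, had 78, 66 and 56 counts in control and 133, 88 and 96 in LHX2 libraries (log2 fold change 0.78 ± 0.21, SE; adjusted p = 9.91e-03). NR0B2 did not pass when control replicate 2 (adjusted p = 0.051) or, separately, LHX2 replicate 1 (adjusted p = 0.058) was left out. NR1H3, the sterol sensor LXR-alpha, fell by 0.44 on the log2 scale and HNF4A by 0.26, and FOXA2 rose by 0.33.

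Of 16 genes of bile acid synthesis and conjugation 13 were tested, of which 3 rose, 5 fell and 5 did not pass (median log2 fold change -0.27). In this list 23.1% of the tested genes rose and 38.5% fell, against 16.6% and 15.8% of all tested genes. SLC27A2, the very long chain acyl-CoA synthetase, fell by 0.77 and the peroxisomal oxidase gene ACOX2 by 0.50 on the log2 scale, whereas AMACR, the racemase of side-chain intermediates, rose by 0.58 and HSD17B4, the D-bifunctional protein, by 0.45. CYP7A1, the rate-limiting enzyme of the classic pathway, had at most 6 counts in a library and was not tested. All 14 genes that shape or stabilise the canalicular membrane were tested, with 3 higher, 3 lower and 8 not passing. That is 21.4% in each direction, against 16.6% higher and 15.8% lower over all tested genes. TMEM30A, the partner of the lipid flippase ATP8B1, rose by 0.60 and USP53 by 0.46, and ATP8B1 itself fell by 0.37 on the log2 scale. Of 7 related transporters outside the naming rule 5 were tested: SLC15A1, the peptide importer PEPT1, rose by 1.52 on the log2 scale, TAP2, an antigen peptide transporter of the ABCB family, fell from 21.6 ± 1.86 to 14.5 ± 0.760 CPM (SD, n = 3), and TAP1 and SLC29A1 did not pass. SLC51B, a subunit of the basolateral bile acid exporter, was lower at 5.03 ± 0.552 CPM than at 8.94 ± 0.0533 CPM in control (SD, n = 3; log2 fold change -0.83, edgeR adjusted p = 1.83e-05), and its partner SLC51A, with 1 or 2 counts in each library, was not tested. CFTR, a chloride channel of the ABCC family, had 15, 9 and 24 counts in control and 3, 4 and 7 in LHX2 libraries without overlap. It was below the filter and was called lower when all genes with counts were fitted (log2 fold change -1.67, edgeR adjusted p = 0.010).

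**Figure D4:**
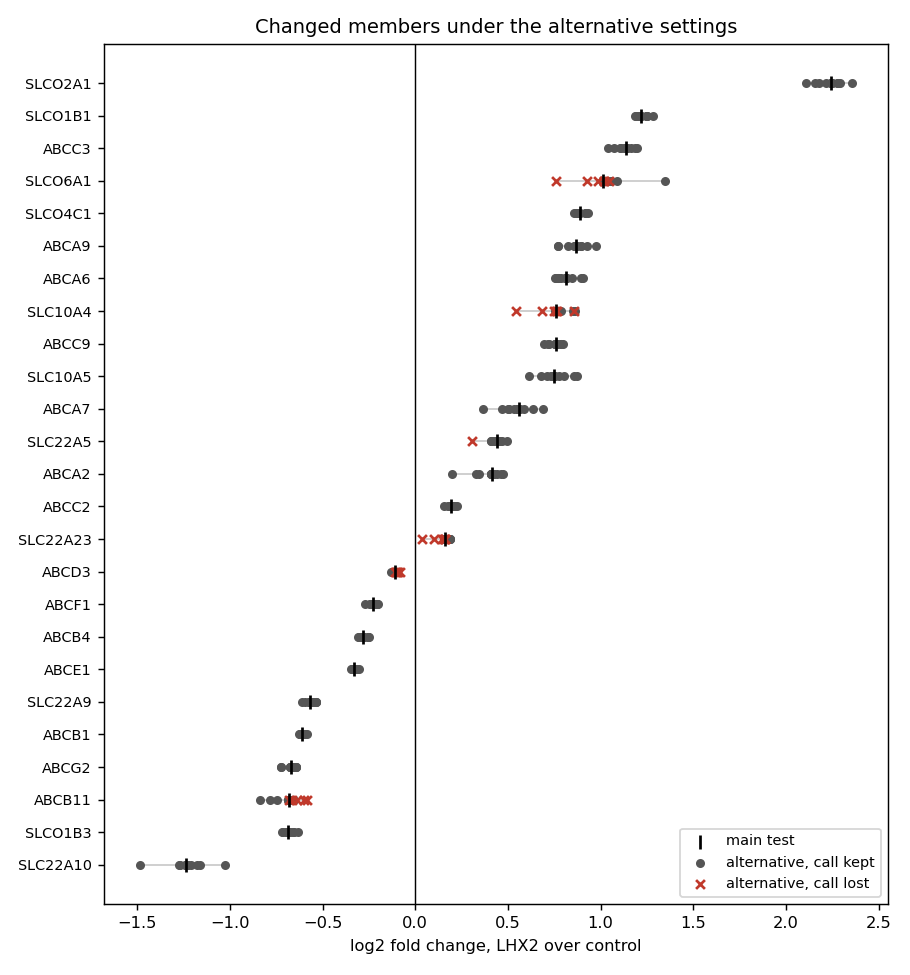
Log2 fold change (x axis) of 25 of the 27 members that passed the test, in the main test (bar) and under 13 alternative settings, with grey points where the call was kept and crosses where it was lost. No cross falls on 19 of the members plotted, and the crosses fall on ABCB11, ABCD3, SLC10A4, SLC22A5, SLC22A23 and SLCO6A1.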

How the data were processed

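Polyadenylated RNA from 3 control and 3 LHX2 libraries was analysed. The authors deposited raw read counts per gene without normalization. The submitters' processing notes name featureCounts 2.0.0, SAMtools 1.9, TopHat2 2.1.1, bcl2fastq 2.20, Bowtie2 2.3.5.1 and FastQC with GRCh38 (hg38). No source used here gives the annotation, the strand setting or the treatment of reads shared between genes. The control column named in another form than the others was taken as replicate 1 by its last number. The unit found in the file was that foreseen, and no column was left out.

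Low counts were removed with edgeR's filterByExpr (at least 10 counts, 15 in total, proportion 0.7), libraries were scaled by TMM (factors 0.985 to 1.02), and groups were compared over all genes with the edgeR quasi-likelihood test and Benjamini-Hochberg adjustment at 0.05. SEs came from the F statistic. edgeR 4.0.16, limma 3.58.1, DESeq2 1.42.0, R 4.3.3, Python 3.11.15, pandas 2.3.3, numpy 2.4.6, scipy 1.17.1 and matplotlib 3.10.9 were used, and the fit was tested on simulated data. Transcript lengths, GC content and shared 50-base words came from GENCODE 29 (a gene's longest transcript). Positions came from RefSeq for 88 of the 89 members (GRCh38.p14), with no position given for SLCO1B7, and promoter stretches were aligned end to end with free end gaps. Counting intervals are exact binomial at 95%.

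The members, lists and alternatives were chosen with earlier results of these data known. Named were LHX2, all members of the uptake, canalicular, basolateral, soluble, mitochondrial and peroxisomal lists, every other member with an adjusted p under 0.05, and from each outside list up to 4 called genes with the largest change plus NR1H4, NR0B2, CYP7A1 and HNF4A. Some genes chosen by this rule are counted but not reported here by name. The remaining members, the other related transporters, the markers and the GTTAAT motif were added to complete counts or after their values or letters were seen. Alternatives were RLE factors, library totals alone, no filter on low counts, 1 CPM in 3 libraries, a replicate block, DESeq2, removal of a length and GC trend (loess, span 0.3, centred per library) and each library left out.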

Additional observations from a re-analysis of the deposited data

How the results depend on the processing

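Of the 27 members called, 20 kept their call and direction under each of the 13 alternatives in which they could be tested, 7 lost it under at least 1 (given above with the genes named), and 0 reversed. Of the 30 tested members not called, 13 were followed through the alternatives, namely those of the uptake, canalicular, basolateral, soluble, mitochondrial and peroxisomal lists. Among these 13, 4 were called somewhere: ABCA1, ABCC1, ABCC5 and ABCD4. Uncalled members outside those lists were not followed gene by gene. One of them, SLC22A18, was called lower with low genes kept (log2 fold change -0.30, edgeR adjusted p = 0.037). Counts over all members stayed within 1.5 times the main count under the alternatives run. The share of higher calls among all tested genes was 51.2%, and it was 59.7% with library totals alone and 44.1% with the length and GC trend removed; for members it was 59.3%, 63.0% and 48.3% (14 higher, 15 lower), a change of over 10 points with the trend removed. Basolateral exporters called lower numbered 0 in the main test, 1 with low genes kept and 3 with the trend removed, and ran from 0 to 1 as each library was left out, with 1 without LHX2 replicate 2. Carriers outside the sinusoidal list called higher went from 7 to 4 with the replicate block and with DESeq2 and ran from 4 to 6 with a library left out (4 without control replicate 2). Those called lower went from 1 to 2 without the filter and with the trend removed, and ran from 1 to 2 (2 without LHX2 replicate 2 or 3). Other ABC genes called lower ran from 2 to 4, with 2 without control replicate 2. Bile acid synthesis genes called lower went from 5 to 3 with DESeq2 and ran from 3 to 5 (3 without control replicate 2 or 3 or LHX2 replicate 2). Regulators called lower went from 3 to 6 with the trend removed. Causes were not tested.

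Whether same-numbered libraries shared more than a number is not given. The deviations from their group means correlated at -0.056, -0.074 and -0.195 for replicates 1 to 3, and between -0.072 and 0.133 for libraries with unlike numbers. With 3 libraries in a group, such values cannot decide whether they shared a batch. With the replicate block 13 members rose and 9 fell, against 16 and 11. The median of the sinusoidal carriers rests on 4 tested genes, and ran from -0.64 to -0.24 as a library was left out and up to 6 passed the filter. The 32 untested members had at most 15 counts in a library, and the called members SLC10A4 and SLCO6A1 at most 39, so counting error weighs most on these. No other depth was tested.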
